A study of Saccharomyces cerevisiae with 6 samples.

Results

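The subtelomeric zone analysed here is the stretch of each budding yeast chromosome that begins 5 kb from the physical end and stops 30 kb from it. Its members are the 50 bp bins whose midpoint lies in that stretch, at the 32 ends of 16 chromosomes, with the silent mating-type loci HML and HMR left out. The rule gave 16000 bins, of which 240 belonged to HML and HMR, so that 15760 of 241434 bins remained, 6.53% of the genome. The choice used position only and no measured value. Another 27 bins over RPD3, which is itself in the zone on the left arm of chromosome XIV (XIV:18001-19302, R64 build), were left out of all comparisons because the gene was deleted in 1 of the groups.

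Subtelomeres hold few genes that growing cells need and many members of gene families that respond to nutrients, the cell wall and stress, often as near-identical copies at several ends. The outermost chromatin is silenced by the Sir proteins, which bind hypoacetylated histones, and in yeast the histone deacetylase Rpd3 is known to restrain the spread of that silencing inward. Fkh1 is a forkhead transcription factor that binds promoters, replication origins and the recombination enhancer that directs mating-type switching.

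The study compared chromatin immunoprecipitated with anti-FLAG M2 antibody from Saccharomyces cerevisiae that was WT (strain OAy1102, 3 samples) or rpd3Δ (strain YHy17, 3 samples). All 6 samples came from cells grown in the rich medium YEPD at 23 °C, held in G1 by α-factor (about 5 nM, 4 h) and fixed with 1% formaldehyde. The labels do not name the FLAG-tagged protein, and the series title names Fkh1. The labels give the strain names but no other allele, and do not say whether the 3 samples of a genotype were separate cultures, and their spread, which is what the p-values rest on, may be technical.

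The bin counts summed to between 3987250 and 6785491 per sample, of which the ribosomal DNA (rDNA) on chromosome XII took 37.1% to 49.7% in WT, against 56.0% to 64% in rpd3Δ. The zone held between 109572 and 260370 counts per sample, a median of 5 to 12 per bin. WT replicate 3 and rpd3Δ replicate 1 stood apart from their groups over the rDNA, where RDN25 signal relative to the rest of the genome was 286, 232 and 661 in WT and 579, 1256 and 1274 in rpd3Δ, so the zone ratio, the distance classes and the counts of lower windows are also given without both. The inner part of RPD3 had 211, 253 and 165 counts in WT and 0, 4 and 0 in rpd3Δ, which matches the labels. BAR1, the gene of the α-factor protease, had 0 counts in all 6 samples, although the labels do not mention it, and its bins were left out as well. No unprecipitated DNA was analysed here, so a difference in immunoprecipitated signal and a difference in the DNA itself, such as a repeat present in 1 strain only, cannot be told apart.

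Signal in the zone was lower in rpd3Δ than in WT relative to chromosome interiors. The mean count per zone bin, divided by the mean of bins over 50 kb from both ends on chromosomes other than XII, was 1.13, 1.13 and 1.09 in WT, against 0.970, 0.957 and 0.939 in rpd3Δ. The zone was thus above the interior in every WT sample and below it in every rpd3Δ sample, and the groups did not overlap. The group means were 1.12 ± 0.023 (SD, n = 3) and 0.955 ± 0.015 (SD, n = 3), a difference of -0.23 on the log2 scale or 14.6%. An exact permutation test (both sides counted) gave p = 0.1, the smallest value that 3 samples against 3 allow. The log2 difference was -0.26 without WT replicate 3 and rpd3Δ replicate 1 (exact permutation p = 0.33, with fewer samples). In this ratio they were the WT sample nearest to rpd3Δ and the rpd3Δ sample nearest to WT. Leaving them out thus widens the gap by construction and adds no support. Because the ratio is taken within a sample it does not depend on library size or on the rDNA share.

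The WT level dropped from the outermost class and rose again from 20 kb to 30 kb, while the difference between genotypes shrank inward. In WT the ratio to the interior was 1.67 ± 0.119 (SD, n = 3) at 5 to 10 kb, 0.976 ± 0.017 at 10 to 15 kb, 0.918 ± 0.006 at 15 to 20 kb, 0.945 ± 0.018 at 20 to 25 kb and 1.07 ± 0.006 at 25 to 30 kb. In rpd3Δ the corresponding ratios were 1.30 ± 0.098, 0.831 ± 0.012, 0.790 ± 0.023, 0.839 ± 0.028 and 1.00 ± 0.015. All 5 distance classes were lower in each rpd3Δ sample than in any WT sample, with log2 differences of -0.36, -0.23, -0.22, -0.17 and -0.10 from the outermost class inward (exact permutation p = 0.1 in each, and 0.1 after adjustment over the 5 classes). Without WT replicate 3 and rpd3Δ replicate 1 the differences were -0.48, -0.25, -0.19, -0.13 and -0.10. Outward of the zone, at 0 to 5 kb, the log2 difference was -0.35 over all bins and -0.037 between peaks, where the groups overlapped. Inward of the zone the difference was -0.10 at 30 to 40 kb and -0.05 at 40 to 50 kb. The groups were also separate in these 2 classes and over all bins at 0 to 5 kb (exact permutation p = 0.1 in each). Separation was thus not particular to the zone, and the difference at 30 to 35 kb (-0.13) was larger than at 25 to 30 kb.

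**Figure D1:**
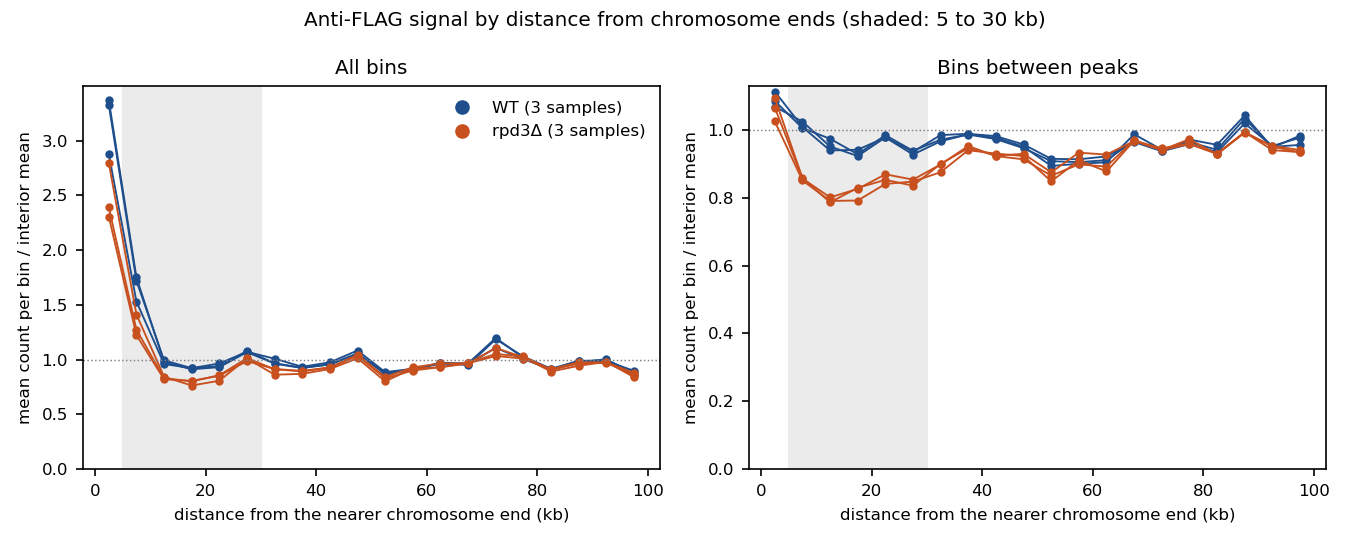
Mean count per 50 bp bin divided by the interior mean of the same sample, against distance from the nearer chromosome end in kb, for all bins (first panel) and for bins between peaks (second panel). Each line is 1 sample (blue, 3 WT; orange, 3 rpd3Δ), and the shaded band is the zone, where the ratio at 5 to 10 kb averaged 1.67 in WT and 1.30 in rpd3Δ.

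The steepness of the gradient was read as the ratio of the 5 to 10 kb class to the 25 to 30 kb class within each sample. It was 1.59, 1.64 and 1.43 in WT, against 1.40, 1.26 and 1.24 in rpd3Δ. Without the libraries that stood apart over the rDNA the log2 difference of this ratio was -0.37. The lowest WT sample, replicate 3, was just above the highest rpd3Δ sample, replicate 1 (exact permutation p = 0.1), and these are the same libraries. Between peaks the gradient was shallow in both groups, with means of 1.08 in WT and 1.01 in rpd3Δ.

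The lower signal was not limited to sites of strong binding. Peaks were defined on all 6 samples added together, as bins whose smoothed signal was at least 2 times the median of the surrounding 20 kb, and 1321 zone bins (8.40%) lay in one. Sequence between peaks, relative to interior sequence between peaks, was 0.965, 0.960 and 0.960 in WT and 0.824, 0.841 and 0.832 in rpd3Δ, a log2 difference of -0.21 with no overlap (exact permutation p = 0.1). Peak bins, relative to interior peak bins, were 1.40, 1.38 and 1.36 in WT, against 1.19, 1.19 and 1.2 in rpd3Δ, also a log2 difference of -0.21 with no overlap (exact permutation p = 0.1).

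The 5 distance classes were also taken apart for each kind of sequence. Between peaks the log2 difference was -0.24, -0.27, -0.19, -0.20 and -0.14 in the 5 classes from 5 to 30 kb, without overlap of the groups in any class. In peaks it was -0.36 at 5 to 10 kb and -0.37 at 15 to 20 kb, where the groups did not overlap. It was -0.07, -0.04 and 0.07 at 10 to 15, 20 to 25 and 25 to 30 kb, where they did overlap, and -0.12, 0.15 and 0.16 there without WT replicate 3 and rpd3Δ replicate 1. The classes of peak bins are small, with 152 to 521 bins each. Set against the same kind of sequence in the interior, the log2 difference was -0.16 in coding sequence, -0.15 upstream of genes and -0.28 in other intergenic sequence, each without overlap and each at the limit of p = 0.1 of the exact permutation test.

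The ends differed from each other. Each end was then tested as 1 window of 25 kb among 473 such windows that cover the genome outside the rDNA, with library sizes set on bins of 10 kb over the whole genome. In rpd3Δ 26 of the 32 zone windows were lower (81.25%) by edgeR's quasi-likelihood test at an adjusted p under 0.05, against 27.5% of all windows. None was higher by edgeR, against 20.9% of all windows. The count of higher zone windows was also 0 at an unadjusted p under 0.05, against 120 of all 473 windows, and 0 by DESeq2. Of the 32 log2 fold changes 30 were negative, against 51.8% of all windows, with a median of -0.27 against -0.01 over all windows. The rpd3Δ samples all lay below the WT samples at 24 ends, against 31.1% of all windows. Among the 26 lower ends the groups overlapped at III left, V right and XVI right. DESeq2 called 25 ends lower, without III left (adjusted p = 0.218) and XVI right (adjusted p = 0.064). Without WT replicate 3 and rpd3Δ replicate 1, which widens the zone difference by construction, 31 ends were lower.

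The left end of chromosome I, which carries the flocculin gene FLO9, had the largest decrease on this genome-wide scale. Its ratio to the interior was 0.876, 0.888 and 0.839 in WT and 0.506, 0.569 and 0.634 in rpd3Δ. Every rpd3Δ sample was well below every WT sample, and the log2 fold change was -0.63 (SE 0.059, adjusted p = 9.18e-07 by edgeR). The right end of the same chromosome, which carries FLO1, fell by 0.57 on the log2 scale (SE 0.072, adjusted p = 1.36e-05 by edgeR), from 0.574 ± 0.018 to 0.390 ± 0.051 (SD, n = 3). Bins with no count in any sample made up 18.0% of that end.

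The left end of chromosome VI was at 0.878, 0.907 and 0.850 in WT, against 0.590, 0.632 and 0.623 in rpd3Δ. The groups were far apart, and the log2 fold change was -0.53 (SE 0.042, adjusted p = 1.66e-07 by edgeR). The right end of chromosome IV was at 1.17, 1.15 and 1.16 in WT and 0.793, 0.832 and 0.816 in rpd3Δ. It thus passed from above to below the interior level, a log2 fold change of -0.52 (SE 0.031, adjusted p = 7.14e-09 by edgeR). These 4 ends were lower whichever library was left out, as were 20 of the 26 in all.

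At the other extreme, 4 ends had the highest fold changes and none of them passed the test. The left end of chromosome VII was at 1.18, 1.22 and 1.16 in WT and 1.31, 1.2 and 1.11 in rpd3Δ (log2 fold change 0.02, SE 0.056, adjusted p = 0.808 by edgeR). The right end of chromosome XIII was at 1.21, 1.19 and 1.16 in WT and 1.33, 1.18 and 1.25 in rpd3Δ (0.07, SE 0.049, adjusted p = 0.247 by edgeR). The groups overlapped at both. The left ends of chromosomes XIII and XVI had log2 fold changes of -0.10 (adjusted p = 0.083 by edgeR) and -0.05 (adjusted p = 0.216 by edgeR).

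**Figure D2:**
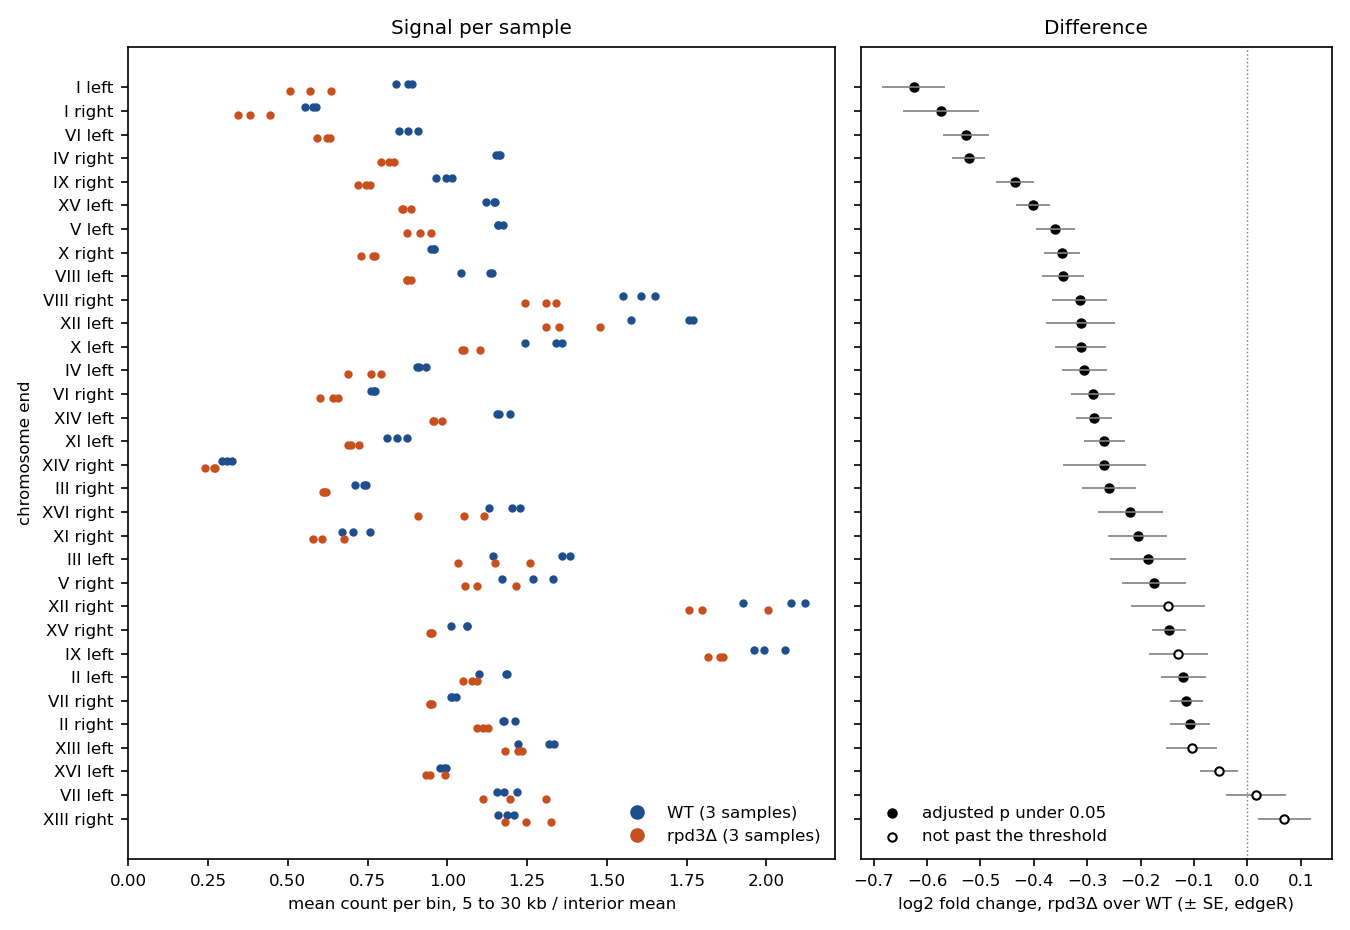
The 32 chromosome ends, in order of fold change. The first panel gives the mean count per bin at 5 to 30 kb divided by the interior mean in each sample (blue, WT; orange, rpd3Δ); the second gives the log2 fold change of rpd3Δ over WT with its SE, filled where the edgeR adjusted p was under 0.05. The fold changes run from -0.63 at the left end of chromosome I to 0.07 at the right end of chromosome XIII, and 26 points are filled.

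The ends also differed in their level of signal. In WT the ends ran from 0.310 of the interior at the right end of chromosome XIV, where 44.4% of bins had no count in any sample, to 2.04 at the right end of chromosome XII. The 2 ends with the highest WT signal, XII right and IX left (2.0), had log2 fold changes of -0.15 and -0.13 that did not pass the test (adjusted p = 0.084 and 0.065 by edgeR). At IX left every rpd3Δ sample was below every WT sample, and DESeq2 called it lower (adjusted p = 0.00696). The next 2 in WT level, XII left (1.70) and VIII right (1.60), were both lower, at -0.31. Across the 32 ends the Spearman correlation of the log2 fold change with the WT level was 0.33 and with the length of the chromosome 0.39; over the 16 chromosomes that of the left with the right end was 0.43. These are descriptions of points that share the same 6 libraries. The 8 ends of chromosomes shorter than 500 kb had a median of -0.36, with 7 of them lower, against -0.24 for the other 24 ends. Relative to the interior of their own chromosome the medians were close, -0.22 for the 8 and -0.20 for the 24.

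Measured against the interior of its own chromosome, the log2 ratio was negative at 30 ends, with a median of -0.20, and the groups were separate at 25. At the right end of chromosome VI the log2 ratio was -0.04 on that scale, against -0.29 by edgeR. The left and right ends of chromosome I were at -0.43 and -0.39 there, and the left end of VI at -0.28. The largest decreases on that scale were at IV right (-0.55) and XII left (-0.52). XII right was at -0.36, with the groups separate. For both ends of chromosome XII this reference was sequence that the common interior left out. By edgeR XII left was at -0.31 and XII right at -0.15, the latter not past the test. Between peaks, relative to the common interior, they were at -0.13 and 0.02. Y' elements are repeats found next to many telomeres and encode the YRF1 helicases. The 7 ends with a YRF1 gene within 15 kb had -0.15 as the median of their log2 fold changes, and the other 25 had -0.29.

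At a finer scale the zone was cut into 787 tiles of 1 kb, of which 772 had the mean of at least 10 counts and the minimum share of usable bins needed for the test. In rpd3Δ 130 of the 772 tiles were lower (16.8%), against 3.6% of the 11988 tiles tested over the genome (edgeR adjusted p under 0.05). Only 5 zone tiles were higher (0.648%), against 3.16% over the genome. The median log2 fold change was -0.23 in the zone and 0.00 over all tiles. Of the 772 zone tiles 602 were negative (78.0%), against 49.4% of all tiles. In 265 zone tiles (34.3%) all rpd3Δ samples lay below all WT samples, against 11.4% of all tiles. Tiles of 1 kb hold few reads, and the count of lower tiles was 64, 57 and 73 without WT replicate 1, WT replicate 2 and rpd3Δ replicate 2. It was 129 without WT replicate 3 and rpd3Δ replicate 1, and 37 tiles were lower whichever library was left out.

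Lower tiles were found at all distances. They made up 35 of 157 tiles at 5 to 10 kb, 31 of 151 at 10 to 15 kb, 23 of 154 at 15 to 20 kb, 21 of 155 at 20 to 25 kb and 20 of 155 at 25 to 30 kb. The median log2 fold change in these classes was -0.30, -0.25, -0.21, -0.21 and -0.11. Tiles with at least 10 of their 20 bins in peaks were lower in 17 of 67 cases, against 10.8% of such tiles over the genome. Tiles with no peak bin were lower in 93 of 640 cases (14.5%), against 2.55% of such tiles over the genome.

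**Figure D3:**
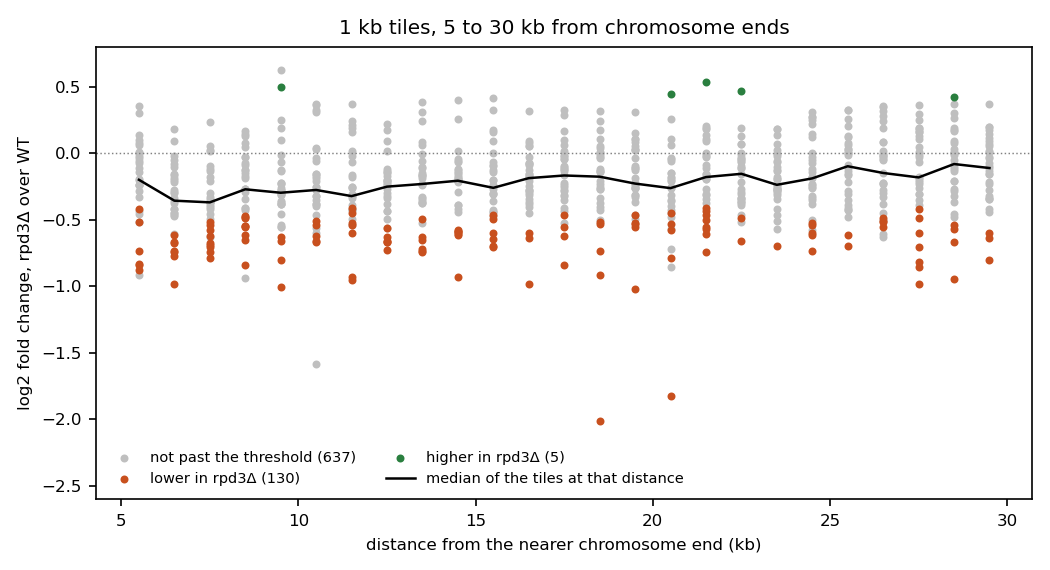
Log2 fold change of rpd3Δ over WT for the 772 tested tiles of 1 kb, against distance from the nearer chromosome end in kb. Grey tiles did not pass the edgeR test, 130 orange tiles were lower and 5 green tiles were higher. The black line is the median at each distance, and the lowest tile, at -2.01, has FLO1 as its nearest gene.

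Lower tiles were spread unevenly over the ends. The right end of chromosome IV had 15 of 25, the left end of chromosome I 14 of 24, the left end of chromosome XV 12 of 25 and the right end of chromosome X 9 of 25. At 11 ends at least 5 tiles were lower, and at 5 ends none was by edgeR (V right, XII right, VII right, VII left and XVI left). The longest run of adjacent lower tiles was at the right end of chromosome IV, where 9 tiles from 7 to 16 kb fell in an unbroken row over PAU10 (a seripauperin of the cell wall family), YDR541C and IRC4. Adjacent tiles share the reads that cross their border.

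In that run the tile nearest the end (IV:1523951-1524950, nearest gene PAU10), most of it inside a peak, had scaled counts per bin of 36.6, 42.5 and 31.8 in WT, against 23.8, 21.6 and 18.9 in rpd3Δ. The tile at IV:1516951-1517950, outside any peak and nearest to IRC4, had 12.1, 12.9 and 9.21 in WT and 5.14, 7.51 and 5.48 in rpd3Δ. Both were lower in every rpd3Δ sample, with log2 fold changes of -0.78 (SE 0.160, adjusted p = 0.000574 by edgeR) and -0.93 (SE 0.156, adjusted p = 2.25e-05 by edgeR). Both tiles were named after their values were seen.

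The largest changes of single tiles lay at the 2 ends of chromosome I. The tile at I:211201-212200, whose nearest gene is FLO1, had scaled counts per bin of 25.1, 24.2 and 17.8 in WT, against 5.19, 6.06 and 5.48 in rpd3Δ. The lowest WT sample was still about 3 times the rpd3Δ mean of 5.58, and the log2 fold change was -2.01 (SE 0.144, adjusted p = 3.97e-19 by edgeR). The tile at I:20001-21000, nearest to YAL064W, had 30.3, 35.9 and 24.1 in WT and 9.14, 8.75 and 7.58 in rpd3Δ. Here too the groups were far apart, with a log2 fold change of -1.82 (SE 0.15, adjusted p = 3.64e-16 by edgeR). In the WT samples the first tile stood at 6.0 and the second at 3.62 times the local median, and in rpd3Δ they stood at 2.57 and 1.49 times.

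The ends of chromosome I are known to share long repeats that carry FLO1 and FLO9, so it is uncertain to which copy the reads belong, and the tiles may not be separate observations. The tiles around the FLO1 one were affected less. At I:212201-213200 the log2 fold change was -0.27 (SE 0.208, adjusted p = 0.492 by edgeR). At I:210201-211200 the log2 fold change was -1.02 on mean scaled counts per bin of 3.41 in WT and 1.67 in rpd3Δ, and this call was lost without WT replicate 2 (adjusted p = 0.090 by edgeR) and without rpd3Δ replicate 2 (adjusted p = 0.070 by edgeR). Around YAL064W a run of 5 lower tiles covered 18 to 23 kb from the left end, with log2 fold changes of -0.73, -0.53, -1.82, -0.74 and -0.49.

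Of the other 8 tiles with the largest decreases, 3 lay beside SOR and HXT genes. Tiles nearest SOR2 (IV:9001-10000) and HXT15 (IV:11001-12000), at the left end of chromosome IV, fell together. Their scaled counts per bin were 13.9, 17.3 and 13.9 in WT against 7.59, 6.63 and 8.46 in rpd3Δ at SOR2, a sorbitol dehydrogenase gene. At HXT15, a gene of the hexose transporter family, they were 14.6, 14.7 and 11.7 against 6.69, 7.87 and 7.04. The groups did not overlap at either, and the log2 fold changes were -1.01 (SE 0.138, adjusted p = 1.44e-07 by edgeR) and -0.93 (SE 0.140, adjusted p = 1.57e-06 by edgeR).

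SOR1 and HXT16, the near-identical relatives at the right end of chromosome X, lay in a run of 4 lower tiles from 8 to 12 kb. The tile nearest HXT16 (X:733751-734750) had 12.9, 9.47 and 7.88 in WT and 4.95, 4.25 and 6.63 in rpd3Δ, with no overlap and a log2 fold change of -0.95 (SE 0.172, adjusted p = 8.83e-05 by edgeR). The next tile inward, X:732751-733750, had a log2 fold change of -0.13 (SE 0.194, adjusted p = 0.767 by edgeR). Since the copies on chromosomes IV and X share sequence, their reads may have been split between them.

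At the left end of chromosome III a run of 4 lower tiles covered 5 to 9 kb around GEX1, a glutathione exchanger that has a near-identical copy, GEX2. The lowest of them, III:6001-7000, had 6.41, 8.20 and 8.01 in WT, against 3.25, 3.78 and 4.53 in rpd3Δ. The highest rpd3Δ sample was below the lowest WT sample, and the log2 fold change was -0.98 (SE 0.193, adjusted p = 0.000338 by edgeR). The tile I:213201-214200, nearest to YAR061W, also had a log2 fold change of -0.98 (SE 0.240, adjusted p = 0.00469 by edgeR), on low scaled counts per bin of 4.45 in WT, against 2.24 in rpd3Δ. The tile I:202201-203200, nearest to FLO1, had -0.98 (SE 0.260, adjusted p = 0.00971 by edgeR) and lost the call without WT replicate 1 (adjusted p = 0.093 by edgeR) or WT replicate 2 (adjusted p = 0.065 by edgeR).

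A single-copy locus with a strong decrease was the allantoin cluster at the right end of chromosome IX, whose genes let cells use allantoin as a nitrogen source. The tile nearest DCG1 (IX:411901-412900) was 1 of the 8 highest zone tiles relative to its surroundings, with scaled counts per bin of 56.5, 59.0 and 45.7 in WT, against 37.6, 30.2 and 23.3 in rpd3Δ. The neighbouring tile nearest DAL2, the allantoicase gene (IX:410901-411900), had 33.6, 35.0 and 25.4 in WT and 18.9, 13.5 and 16.5 in rpd3Δ. In rpd3Δ they stood at 4.98 and 2.65 times the local median, against 7.55 and 4.41 times in WT. Both were lower in every rpd3Δ sample, with log2 fold changes of -0.82 (SE 0.184, adjusted p = 0.00174 by edgeR) and -0.95 (SE 0.154, adjusted p = 1.09e-05 by edgeR). Both calls held whichever library was left out. Both tiles lay in a run of 3 lower tiles from 27 to 30 kb, which reached the inner edge of the zone. Next to this run, the 2 tiles nearest DAL7 had log2 fold changes of -0.22 and -0.39 that did not pass the test.

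The 8 highest tiles relative to their surroundings were not all affected alike. The highest, at XII:1071201-1072200 beside YRF1-4, stood at 12.9 times the local median in the sum of the 6 samples, with scaled counts per bin of 198, 205 and 160 in WT and 177, 133 and 123 in rpd3Δ. Its groups overlapped (log2 fold change -0.38, SE 0.284, adjusted p = 0.488 by edgeR). Without WT replicate 3 and rpd3Δ replicate 1 the log2 fold change was -0.65 (adjusted p = 7.31e-05 by edgeR). These were the lowest WT sample and the highest rpd3Δ sample of this tile, so that fit widens the gap by construction. YRF1 genes lie in Y' repeats, so this signal may be that of several ends.

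The second highest tile, III:29001-30000, lies beside KAR4 at the inner edge of the zone, in the region of the recombination enhancer, a known Fkh1 binding site. It stood at 8.84 times the local median, with scaled counts per bin of 73.8, 68.6 and 47.6 in WT, against 82.0, 64.2 and 51.3 in rpd3Δ. The groups overlapped fully, and the log2 fold change was 0.06 (SE 0.212, adjusted p = 0.921 by edgeR). The SE of this tile is large, so a decrease of the size seen over the zone as a whole was not detectable there.

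The other highest tiles were XII:5001-6000, V:6001-7000 (nearest gene YEL073C), XII:6001-7000, X:7001-8000 (nearest gene PAU1) and IX:7001-8000 (nearest gene PAU14), all within 10 kb of an end. Their log2 fold changes were -0.52, -0.60, -0.42, -0.63 and -0.71. Of these only the PAU14 tile passed the test (SE 0.210, adjusted p = 0.025 by edgeR). It lost the call without any 1 of WT replicates 1 and 2 and rpd3Δ replicates 2 and 3 (adjusted p = 0.265, 0.156, 0.220 and 0.144 by edgeR). DESeq2 did not call the PAU14 tile (adjusted p = 0.214), and it called the YEL073C and PAU1 tiles lower (adjusted p = 0.0095 and 0.024). Without WT replicate 3 and rpd3Δ replicate 1 together, the other 4 passed, from -0.71 (adjusted p = 1.11e-05 by edgeR) to -1.01 (adjusted p = 1.14e-09 by edgeR). Over the 5 to 10 kb class those libraries were the lowest WT and the highest rpd3Δ sample (1.53 and 1.41 of the interior). Their removal widens the gap there, so these p-values are not added support.

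**Figure D4:**
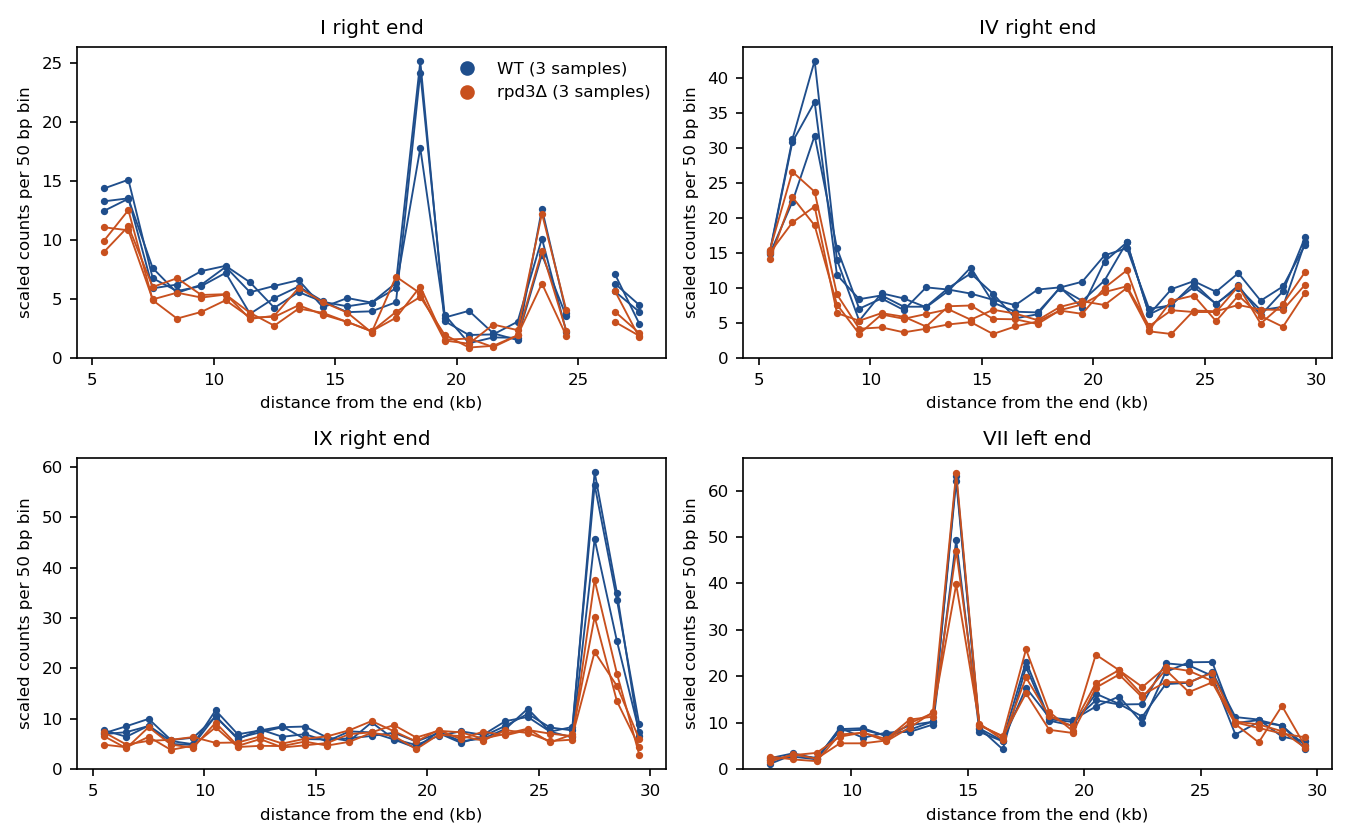
Scaled counts per 50 bp bin in tiles of 1 kb against distance from the end in kb, for 4 chromosome ends. Each line is 1 sample (blue, 3 WT; orange, 3 rpd3Δ), and gaps are tiles that were not tested. The FLO1 tile at the right end of chromosome I, the outer tiles at the right end of IV and the DCG1 and DAL2 tiles at the right end of IX were lower in rpd3Δ, while the lines of the left end of VII overlapped at most distances.

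The 5 tiles that rose included 3 adjacent ones over ZRT1, the high-affinity zinc transporter gene, at the left end of chromosome VII. The middle one (VII:21001-22000) had scaled counts per bin of 14, 13.9 and 15.6 in WT and 21.3, 21.3 and 20.4 in rpd3Δ. All rpd3Δ samples were above all WT samples, and the log2 fold change was 0.54 (SE 0.134, adjusted p = 0.00584 by edgeR). The call was lost without WT replicate 1 (adjusted p = 0.066 by edgeR) or WT replicate 2 (adjusted p = 0.079 by edgeR). Its neighbours on either side, VII:20001-21000 and VII:22001-23000, had log2 fold changes of 0.45 (adjusted p = 0.033 by edgeR) and 0.47 (adjusted p = 0.019 by edgeR).

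The fourth rising tile, VIII:552651-553650, lay nearest to PHO12, an acid phosphatase gene with a near-identical copy, PHO11. It had 13.3, 15.6 and 17 in WT and 21.2, 21.3 and 22.2 in rpd3Δ, a log2 fold change of 0.50 (SE 0.137, adjusted p = 0.014 by edgeR). The promoter of PHO12 itself, among those taken up below, had a negative log2 fold change that did not pass the test. The fifth, III:287601-288600 between CDC50 and OCA4, had overlapping groups and 0.42 (adjusted p = 0.0498 by edgeR), and it is named because the count is small. None of the 5 held in all fits that left out 1 library, and without WT replicate 1 no zone tile was higher by edgeR. DESeq2 called 2 zone tiles higher.

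Promoters were taken as the 500 bp upstream of each start codon. Of 336 promoters with their midpoint in the zone 332 were tested, and in rpd3Δ 21 were lower (6.33%), against 1.26% of the 5965 tested over the genome (edgeR adjusted p under 0.05). None was higher by edgeR, against 0.319% over the genome. At an unadjusted p under 0.05, 7 zone promoters were higher, against 259 of the 5965 over the genome. DESeq2 called 0 zone promoters higher and 9 lower. The median log2 fold change was -0.26 in the zone and -0.06 over all promoters. Of the 332 zone promoters 265 were negative (79.8%), against 60.1% of all promoters. In 96 zone promoters (28.9%) all rpd3Δ samples lay below all WT samples, against 11.7% over the genome.

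Windows of 500 bp hold few reads, and the count of lower promoters depended on single libraries. It was 6, 4, 7 and 13 without WT replicate 1, WT replicate 2, rpd3Δ replicate 2 and rpd3Δ replicate 3, and 42 without WT replicate 3 and rpd3Δ replicate 1. The 1 promoter that was lower whichever library was left out was that of YAL064W (I:21066-21565), next to the lower tile described above. It had scaled counts per bin of 16.6, 14.8 and 14.5 in WT and 7.17, 10.2 and 5.41 in rpd3Δ, without overlap and with a log2 fold change of -1.0 (SE 0.185, adjusted p = 0.000463 by edgeR).

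**Figure D5:**
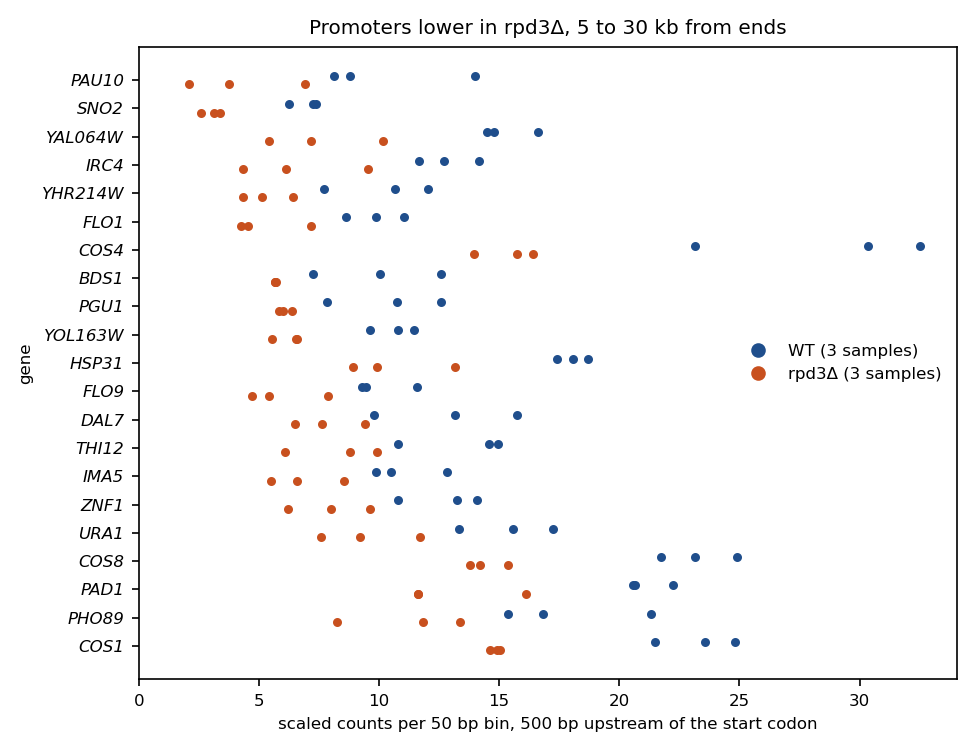
Scaled counts per 50 bp bin over the 500 bp upstream of the start codon for the 21 zone promoters that were lower in rpd3Δ, in order of fold change. Each point is 1 sample (blue, 3 WT; orange, 3 rpd3Δ); PAU10, at the top, had a log2 fold change of -1.30 and COS1, at the bottom, -0.65, and the groups do not overlap in any row.

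The lower promoters belonged to several of the families that fill subtelomeres. Of the COS genes, a family of subtelomeric membrane protein genes, 6 promoters were in the zone and 3 fell, against 6.33% of zone promoters and 1.26% of all promoters. The family median was -0.63, against -0.26 in the zone and -0.06 over all promoters. Of the 6, 5 were negative, as were 79.8% of zone promoters and 60.1% of all promoters, and the highest was at 0.18. In 1 of the 6 all rpd3Δ samples lay above all WT samples, against 11 of 332 zone promoters and 337 of 5965 over the genome. COS4 (VI:5926-6425) had scaled counts per bin of 30.3, 32.5 and 23.1 in WT and 16.4, 15.7 and 13.9 in rpd3Δ, a log2 fold change of -0.90 (SE 0.195, adjusted p = 0.00336 by edgeR). COS8 fell by 0.68 and COS1 by 0.65 on the log2 scale (adjusted p = 0.028 and 0.041 by edgeR). The groups were separate at all 3 genes, but each of the 3 calls was lost without WT replicate 1, WT replicate 2 or rpd3Δ replicate 2, and those of COS8 and COS1 also without rpd3Δ replicate 3.

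The flocculin genes encode cell wall proteins that make cells stick together. Of 3 in the zone 2 fell, against 6.33% of zone promoters and 1.26% of all promoters, and the median was -0.74. All 3 were negative, as were 79.8% of zone promoters and 60.1% of all promoters. FLO1 (I:202903-203402) had scaled counts per bin of 11.1, 9.89 and 8.64 in WT and 4.24, 4.56 and 7.17 in rpd3Δ, a log2 fold change of -0.92 (SE 0.221, adjusted p = 0.00881 by edgeR). FLO9 had -0.74 (SE 0.212, adjusted p = 0.0455 by edgeR, and 0.132 by DESeq2). FLO10, on chromosome XI, had -0.58 and did not pass (adjusted p = 0.151 by edgeR). The FLO1 call was lost without WT replicate 1, WT replicate 2 or rpd3Δ replicate 2 (adjusted p = 0.153, 0.091 and 0.0997 by edgeR), and the FLO9 call without any library but rpd3Δ replicate 2.

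Of the seripauperin and mannoprotein genes of the PAU, DAN and TIR families, 15 promoters were in the zone, 1 fell and the median was -0.27, close to the 6.33% and -0.26 of all zone promoters. That promoter, PAU10 (IV:1522749-1523248), lies in the run of lower tiles at the right end of chromosome IV and had the largest decrease of any zone promoter. It had scaled counts per bin of 8.81, 8.13 and 14 in WT, against 3.77, 2.07 and 6.90 in rpd3Δ. The highest rpd3Δ sample was close to the lowest WT sample, and the log2 fold change was -1.30 (SE 0.243, adjusted p = 0.000463 by edgeR, and 0.293 by DESeq2). Without rpd3Δ replicate 2 it was -0.96 (adjusted p = 0.0548 by edgeR).

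Of the thiamine, pyridoxine and biotin genes 9 promoters were tested and the median was -0.48. Of these 2 fell, against 6.33% of zone promoters and 1.26% of all promoters. All 9 were negative, as were 79.8% of zone promoters and 60.1% of all promoters. SNO2, a pyridoxine synthesis gene (XIV:12877-13376), had 6.26, 7.36 and 7.24 in WT and 3.39, 2.59 and 3.11 in rpd3Δ. Every rpd3Δ sample was far below every WT sample, and the log2 fold change was -1.19 (SE 0.275, adjusted p = 0.00697 by edgeR, lost at 0.092 without WT replicate 2 and 0.068 without rpd3Δ replicate 2). THI12, for the thiamine precursor, had -0.69 (SE 0.184, adjusted p = 0.023 by edgeR, and 0.134 by DESeq2). The related copies on chromosome VI, SNO3 and THI5, had -0.39 and -0.54 and did not pass (adjusted p = 0.563 and 0.103 by edgeR).

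In the allantoin, phosphate, and maltose and isomaltose lists 1 promoter each fell, against 6.33% of zone promoters and 1.26% of all promoters. Each of these calls was lost in DESeq2. DAL7, the malate synthase gene of the allantoin cluster, had a log2 fold change of -0.72 (adjusted p = 0.021 by edgeR), in a list of 4 with a median of -0.59. PHO89, a phosphate transporter gene, had -0.67 (adjusted p = 0.028 by edgeR), in a list of 3 with a median of -0.48. All 3, PHO12 and PHO11 included, were negative (-0.67 to -0.34), as were 79.8% of zone promoters and 60.1% of all promoters. IMA5, an isomaltase gene, had -0.69 (adjusted p = 0.047 by edgeR), in a list of 13 maltose and isomaltose genes with a median of -0.25.

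Other families had no promoter past the edgeR threshold. Of the hexose transporter genes 6 promoters were tested, with a median of -0.39. All 6 were negative, as were 79.8% of zone promoters and 60.1% of all promoters. HXT9 and HXT11, the members with the most signal, had log2 fold changes of -0.43 and -0.01. The 8 iron uptake genes, which serve siderophore transport and ferric reduction, had a median of -0.12, with ENB1 at -0.29 and FIT1 at -0.22. The 8 genes of sulfur and amino acid uptake had a median of -0.22, with MMP1 at -0.22 and SAM3 at 0.20. The 3 arsenic resistance genes had a median of -0.09, with ARR3 at -0.09 and ARR2 at -0.07.

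The lists with the highest medians were the aryl-alcohol dehydrogenase and YRF1 genes. The 3 AAD promoters had a median of 0.27, with AAD4 negative at -0.19. AAD10 had scaled counts per bin of 8.81, 8.62 and 10.8 in WT and 8.39, 12.8 and 14.8 in rpd3Δ, overlapping groups with a log2 fold change of 0.35 (SE 0.186, adjusted p = 0.404 by edgeR). AAD14, next to the deleted RPD3, had 0.27 (adjusted p = 0.559 by edgeR). The 8 YRF1 promoters had a median of 0.05, with YRF1-6 at -0.25 and YRF1-3 at -0.04, and their reads cannot be assigned to 1 copy.

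The remaining promoters among the 10 with the largest decreases were IRC4, YHR214W, BDS1, PGU1 and YOL163W. IRC4 (IV:1517676-1518175), in the run at the right end of chromosome IV, had scaled counts per bin of 11.6, 14.2 and 12.7 in WT and 6.13, 9.53 and 4.33 in rpd3Δ, a log2 fold change of -0.93 (SE 0.195, adjusted p = 0.00257 by edgeR, lost at 0.091 without WT replicate 2). YHR214W had -0.92 (adjusted p = 0.00881 by edgeR, lost at 0.192 without WT replicate 1). BDS1, a sulfatase gene, PGU1, which encodes a pectin-degrading enzyme, and YOL163W had -0.80, -0.77 and -0.76 (adjusted p = 0.028, 0.029 and 0.028 by edgeR), and DESeq2 called none of these 3. The last 4 of the 21 were named after their values were seen: HSP31, a stress gene, at -0.75, ZNF1, a zinc cluster transcription factor gene, at -0.69, URA1, for pyrimidine synthesis, at -0.69 and PAD1, for phenylacrylic acid decarboxylation, at -0.68.

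Promoters of the listed families and other zone promoters had close medians but unequal counts of calls. The 89 tested promoters in any of the 13 lists had -0.27 as the median of their log2 fold changes, with 11 lower. The 243 zone promoters in none of the lists had a median of -0.25, with 10 lower. Lower calls made up 6.33% of all zone promoters and 1.26% of all promoters, and only 1 zone call held whichever library was left out. The lists were chosen with earlier results of these data known, and no test between listed and other promoters was made.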

How the data were processed

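Anti-FLAG ChIP-seq of 6 samples was analysed from counts per 50 bp bin as the authors deposited them, without normalization. Reads had been processed with Bowtie2, SAMtools and bedtools against R64, per the submitters' processing notes; the sources used here give no versions, read filters or treatment of repeats. A read that crosses a bin border counts in each bin. The gene lists, their members and the tests were chosen with earlier results of these data known.

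Counts were summed per window. Library sizes came from TMM on 1191 full 10 kb bins that avoid the rDNA, RPD3 and BAR1. Windows needed a mean of at least 10 counts and, for tiles, at least 0.5 of their bins. The genotypes were compared with edgeR 4.0.16 (quasi-likelihood test, R 4.3.3) over all windows of a kind, with Benjamini-Hochberg adjustment at 0.05. The SE was derived from the quasi-likelihood F as the size of the log2 fold change divided by √F. Scaled counts per bin are raw counts brought to the mean effective library size. Peaks were bins whose signal, smoothed over 500 bp, was at least 2 times the median of the surrounding 20 kb, with that median itself no lower than 0.25 of the genome-wide one. The interior left out chromosome XII, RPD3 and BAR1. For ratios within a sample the test was an exact permutation of the 6 samples. DESeq2 1.42.0 was an alternative, and the edgeR fits were tested on simulated counts. Tables and plots used Python 3.11.15 (pandas 2.3.3, numpy 2.4.6, matplotlib 3.10.9, scipy 1.17.1). Gene names and positions came from the RefSeq gene table.

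Items were named by a rule: the 4 ends with the lowest and the 4 with the highest fold change; up to 10 lower and 10 higher tiles and promoters past the threshold without overlap of the groups; the 8 tiles highest over the local median; and, for every list, its passing members up to a limit of 3, or else the 2 with the most signal. Other neighbours and family members were named after their values were seen. WT replicates 1 and 2 were close, but a chi-square over the 10 kb bins, divided by a factor of 2.57 for shared reads, was 1.19 per degree of freedom (p = 3.95e-06), so they were kept as separate samples.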

Additional observations from a re-analysis of the deposited data

How the results depend on the processing

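The lower ratio of the zone to the interior kept its direction under every alternative run, from -0.34 with the median bin to -0.21 without the ends of chromosomes I, III and VI. It was -0.22 to -0.24 with 1 library left out, and -0.22 with each chromosome's own interior as reference, an alternative chosen after seeing the data, as was leaving out WT replicate 3 and rpd3Δ replicate 1 in the distance classes. The count of 26 lower ends was 21 to 28 with 1 library left out, and with 0 higher ends in each case. With 1 library left out, lower tiles (130) ranged from 57 to 122, higher tiles (5) from 0 to 8, lower promoters (21) from 4 to 28 and higher promoters (0) from 0 to 1.

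Scaling on the zone's own sum, which removes what all ends share, moved the zone median of the tiles from -0.23 to 0.01. It gave 8 lower and 8 higher ends, 45 lower and 70 higher tiles, and 8 lower and 12 higher promoters. The left ends of chromosomes XIII and XVI then turned to 0.13 and 0.18. Without WT replicate 3 and rpd3Δ replicate 1 there were 13 higher tiles, 42 lower and 4 higher promoters, and the left end of chromosome VII turned to -0.080 (adjusted p = 0.046 by edgeR). With WT replicates 1 and 2 pooled there were 75 lower tiles, 1 higher tile and 7 lower promoters. DESeq2 gave 2 higher tiles and 9 lower promoters. Scaling on total counts gave 1 higher promoter. The cause of these moves was not tested, beyond the fewer samples or reads in some fits.

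The replicate numbers did not pair the samples: the deviations of same-numbered samples correlated at 0.29, -0.16 and 0.44. With the replicate block the log2 ratio of the zone was -0.23 (exact sign-flip permutation p = 0.25, the smallest it can give), and there were 8 higher tiles and 33 lower and 2 higher promoters. Of 59 named items, 12 lost the call with DESeq2, 20 without WT replicate 2 and 0 with the block, under which 4 others were gained. A median of 5 to 12 counts per bin limits what single tiles and promoters can show.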
